A study of Homo sapiens with 2 samples.

Results

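Cytochrome P450 genes encode haem enzymes that insert oxygen into drugs, pollutants, sterols, retinoids, vitamin D and fatty acids. Their messenger RNA was examined here in a human B-cell line. Members were all genes with at least 1 probe set whose single annotated symbol has the form of a P450 gene name; CYP51A1 was left out. This gave 43 genes with 74 probe sets, out of 16692 measured genes. The members comprised 18 enzymes of the drug-metabolising families 1 to 3, 16 enzymes of sterols, retinoids and vitamin D, 8 fatty acid enzymes and CYP20A1. CYP20A1 has no established substrate. CYP2R1 was counted by substrate with the vitamin D enzymes, whereas CYP2U1 was counted by family with the drug-metabolising enzymes.

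The samples were 2 arrays of 1 Epstein-Barr virus-transformed lymphoblastoid line, untreated as far as the labels say. The titles write the line as GM06690 and the growth protocol as GM06990. There is 1 group with replicates 1 and 2, so no contrast between conditions exists, and since separate cultures are not named, their spread may be technical. Such a line is a single donor's cultured B cells carrying a virus, and it holds no hepatocytes, the cell type in which most drug-metabolising P450s are studied.

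P450 enzymes of families 1 to 3 sit mainly in the endoplasmic reticulum of liver cells, where they oxidise foreign compounds so that these can be excreted. They receive electrons from the reductase POR, with cytochrome b5 as a helper. Mitochondrial members, such as CYP27A1 and the steroid-forming CYP11 enzymes, receive them from ferredoxin. Other families have narrow substrates: CYP7 and CYP27A1 act on cholesterol and oxysterols, CYP26 clears retinoic acid, CYP27B1 forms and CYP24A1 removes active vitamin D, and CYP4 enzymes hydroxylate fatty acids.

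Signals below are log2 values of the deposited RMA intensities, given for the brightest probe set of each gene as replicate 1 and replicate 2, with the SD of the pair (n = 2). Background was taken, separately for each array, to be the 95th percentile of 78 genes restricted to brain, muscle, eye, pancreas and other tissues, none of them a P450 or a liver gene. This level was 5.06 in replicate 1 and 5.0 in replicate 2 (intensities 33.3 and 32.1). A gene above this level on both arrays is called above background. Because probe sets differ in affinity, a higher signal does not mean that one gene has more transcript than another. The sorted values of the arrays differed by at most 0.14 in log2. Of the B-cell markers, 7 of 7 measured genes were above background, including MS4A1 at 13.12 and 13.26. Of 12 hepatocyte markers 1 was, HPX at 5.84 and 5.81, whereas ALB (3.98 and 3.87), APOA1 (3.69 and 3.70) and HP (3.84 and 3.86) were not. The summed intensity of the 12 was 252 in replicate 1 and 254 in replicate 2.

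Fewer P450 genes than genes in general were above background in these cells. Of the 43 members, 11 (25.6%) were above background on both arrays, beside 57.8% of all measured genes. CYP2B6 and CYP2R1 exceeded the level in replicate 2 alone, and 30 members did so on neither array. The median signal of the members was 4.56, below the background level, whereas that of all genes was 6.11. With the level raised to the 99th percentile of the reference genes, 5.48 and 5.47, 7 members remained above: CYP1A2, CYP1B1, CYP2D6, CYP2U1, CYP4V2, CYP20A1 and CYP27A1. The share of all genes was then 53.7%.

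**Figure D1:**
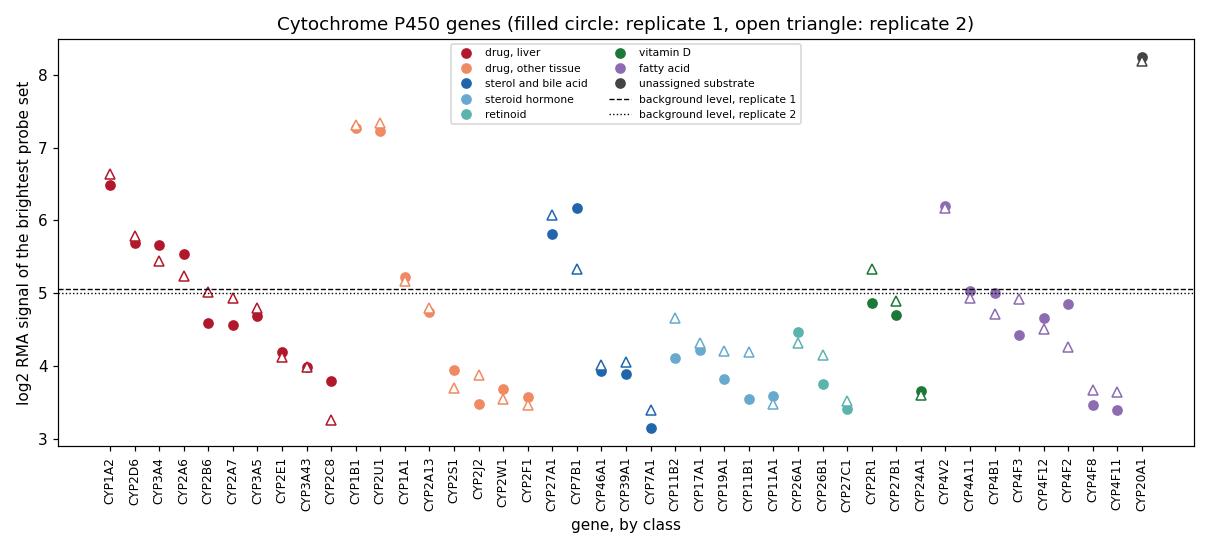
Log2 RMA signal of the brightest probe set of each of the 43 P450 genes (vertical axis), ordered by class, with replicate 1 as a filled circle, replicate 2 as an open triangle and the background level of each array as a line. Most genes lie below the lines, and CYP20A1, CYP1B1 and CYP2U1 lie more than 2 above them.

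CYP20A1 stood farthest above background of all members. This conserved P450 without a known substrate read 8.24 and 8.19 (mean 8.21 ± 0.03), which is 3.18 above the level on average. A single probe set measured it. The arrays differed by less than 0.1, so its distance from background was many times the spread between them.

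Among the drug-metabolising enzymes, 7 of 18 (38.9%) were above background, beside 57.8% of all genes. Those known mainly from tissues other than liver gave 3 of 8, and those of the liver 4 of 10. CYP1B1, which oxidises oestradiol and polycyclic aromatic hydrocarbons and is induced through the aryl hydrocarbon receptor, read 7.26 and 7.31 (mean 7.28 ± 0.03). CYP2U1, which hydroxylates long-chain fatty acids such as arachidonic acid, read 7.22 and 7.34 (7.28 ± 0.08). It was counted here by its family, and no count was made with it among the fatty acid enzymes. On both arrays CYP1B1 and CYP2U1 lay more than 2 above the level. CYP1A1, the main target of the aryl hydrocarbon receptor, was barely above it with 5.23 and 5.17 (5.20 ± 0.04), and was below the 99th percentile level. The other members of this group, CYP2A13, CYP2F1, CYP2J2, CYP2S1 and CYP2W1, were below background on both arrays. Their mean signals ran from 3.53 to 4.77, with CYP2A13, an airway enzyme, at 4.75 and 4.80 and CYP2F1 at 3.59 and 3.46.

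Of the liver enzymes above background, CYP1A2, which metabolises caffeine, had the signal farthest from the level, 6.49 and 6.64 (mean 6.56 ± 0.11). CYP2D6, which converts codeine and many antidepressants, read 5.69 and 5.78 (5.74 ± 0.07). CYP3A4, which acts on more drugs than any other P450, read 5.67 and 5.45 (5.56 ± 0.16), and CYP2A6, the nicotine oxidase, 5.54 and 5.24 (5.39 ± 0.21). The last 2 lay 0.53 and 0.36 above the level on average, and neither exceeded the 99th percentile level on both arrays. CYP2B6 straddled the level with 4.59 and 5.02. CYP2A7 (4.57 and 4.93), CYP2C8 (3.80 and 3.26), CYP2E1, the ethanol-oxidising enzyme (4.20 and 4.12), CYP3A5 (4.70 and 4.81) and CYP3A43 (3.99 and 4.0) were below it. A further CYP3A5 probe set exceeded the level in replicate 2 alone, with 4.35 and 5.12.

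Most of the liver signals rested on 1 of several probe sets. Over all members, 15 of 74 probe sets (20.3%) were above background on both arrays, beside 53.4% of all named probe sets. Of the 17 members with more than 1 probe set, 0 had every probe set above, 6 had some and 11 had none. CYP1A2, CYP2A6 and CYP3A4 were above only through probe sets ending in _x_at or _f_at, suffixes that Affymetrix gives to sets with probes able to bind other sequences. For CYP1A2 the other probe set read 5.06 and 4.87. For CYP3A4 the other 3 had means of 4.62, 3.85 and 3.98, and for CYP2A6 2 of 4 were above, with means of 5.39 and 5.27 against 4.67 and 4.08. CYP2D6 had 1 of 2 above, with the other at 4.09 and 4.40. A probe set that CYP2D6 shares with CYP2D7 and another locus, not counted here, read 4.39 and 4.33. Whether related transcripts contribute to these signals was not tested.

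Outside the liver group the probe sets also split. CYP1B1 had 3 of 4 above, with means of 7.28, 7.14 and 6.97, and the remaining set at 4.10. The antisense gene CYP1B1-AS1 read 3.38 and 3.39. CYP2U1 had 2 of 4 above, with means of 7.28 and 5.46 against 3.78 and 3.43. Without probe sets ending in _x_at and _f_at, an alternative chosen after seeing the data, 8 of 38 members were above, beside 57.2% of all genes. The drug-metabolising count was then 4 of 15 (CYP1A1, CYP1B1, CYP2D6 and CYP2U1), while the sterol, retinoid and vitamin D count was 2 of 16, as with all probe sets.

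**Figure D2:**
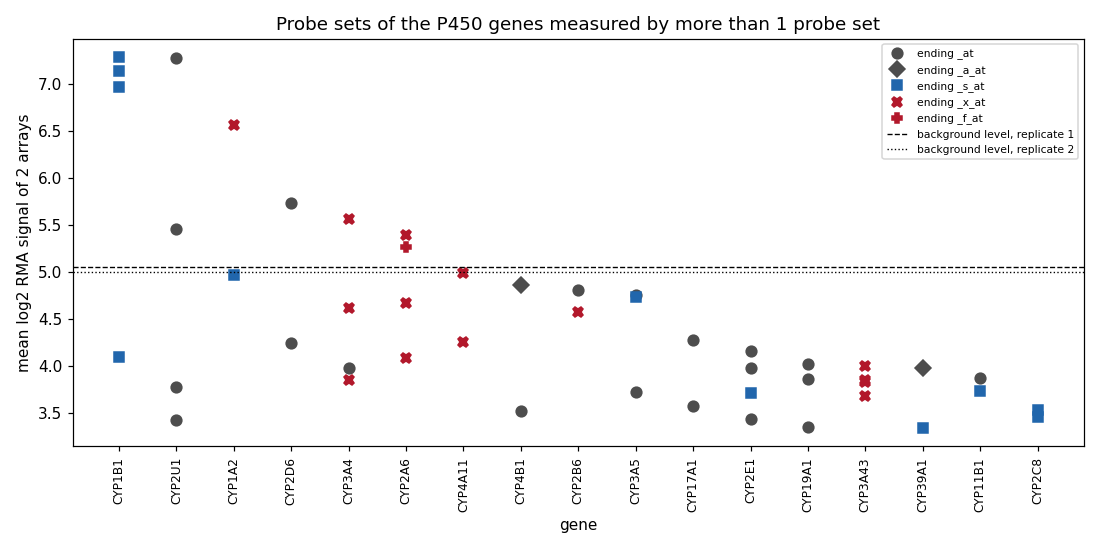
Mean log2 RMA signal of the 2 arrays (vertical axis) for each probe set of the 17 P450 genes with more than 1, with the marker showing the ending of the probe set's name and lines at the background levels. The genes above background each have at least 1 probe set below it.

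Enzymes of sterols, retinoids and vitamin D were above background in 2 of 16 cases (12.5%), beside 57.8% of all genes. The class was measured by 21 probe sets, against 42 for the 18 drug-metabolising genes, so the brightest of more probe sets stood for a gene in the latter class. The difference between the classes was not tested, since genes are not replicates of a condition. At the 99th percentile level the counts were 1 of 16 and 4 of 18, beside 53.7% of all genes.

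The 2 enzymes above background belong to the sterol and bile acid group. CYP27A1, a mitochondrial enzyme that hydroxylates the sterol side chain in bile acid synthesis, read 5.81 and 6.07 (mean 5.94 ± 0.18). CYP7B1, which hydroxylates oxysterols, read 6.18 and 5.34 (5.76 ± 0.60). It exceeded the 99th percentile level in replicate 1 alone. CYP7A1, the rate-limiting enzyme of bile acid synthesis in liver, was at 3.16 and 3.40. CYP39A1 (3.89 and 4.05) and the brain enzyme CYP46A1 (3.93 and 4.02) were also below background.

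Steroid hormone enzymes gave 0 of 5, beside 57.8% of all genes. CYP11A1, which cleaves the cholesterol side chain as the first step of steroid synthesis, read 3.59 and 3.48, and CYP11B1, which completes cortisol, 3.55 and 4.20. CYP11B2, CYP17A1 and the aromatase CYP19A1 had means from 4.02 to 4.38. The retinoic acid hydroxylases CYP26A1 (4.47 and 4.32) and CYP26B1 (3.75 and 4.15) and the retinoid desaturase CYP27C1 (mean 3.47) were below background, 0 of 3.

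Of the vitamin D enzymes, 0 of 3 were above on both arrays, beside 57.8% of all genes. CYP2R1, a hydroxylase of the first activation step, read 4.87 and 5.33 and so exceeded the level in replicate 2 alone. CYP27B1, which makes the active hormone, was just below with 4.71 and 4.90. CYP24A1, which degrades it and is a standard target of the vitamin D receptor, was at 3.67 and 3.61.

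Of the fatty acid enzymes 1 of 8 (12.5%) was above background, beside 57.8% of all genes. This was CYP4V2, an omega-hydroxylase whose loss causes a crystalline retinal dystrophy, with 6.20 and 6.17 (mean 6.18 ± 0.02). CYP4A11 (5.03 and 4.93) and CYP4B1 (5.0 and 4.72) lay just under the level. CYP4F2, CYP4F3, CYP4F8, CYP4F11 and CYP4F12 were below it on both arrays, with means from 3.52 to 4.68. CYP4F3, known as the leukotriene B4 hydroxylase of neutrophils, read 4.43 and 4.93.

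No member differed between the arrays by more than 1 in log2. By more than 0.58, 3 of 43 members (6.98%) differed, beside 1.31% of all genes. The difference (replicate 2 minus replicate 1) was -0.84 for CYP7B1, -0.59 for CYP4F2 and 0.65 for CYP11B1. Of these, only CYP7B1 was above background. Signals near background varied more between the arrays than bright ones: for genes with mean signals from 5 to 6 the median absolute difference was 0.17 over all genes and 0.26 over 7 members. From 6 to 9 it was 0.10 over all genes and 0.05 over 5 members. The 5 are CYP1A2, CYP1B1, CYP2U1, CYP4V2 and CYP20A1.

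**Figure D3:**
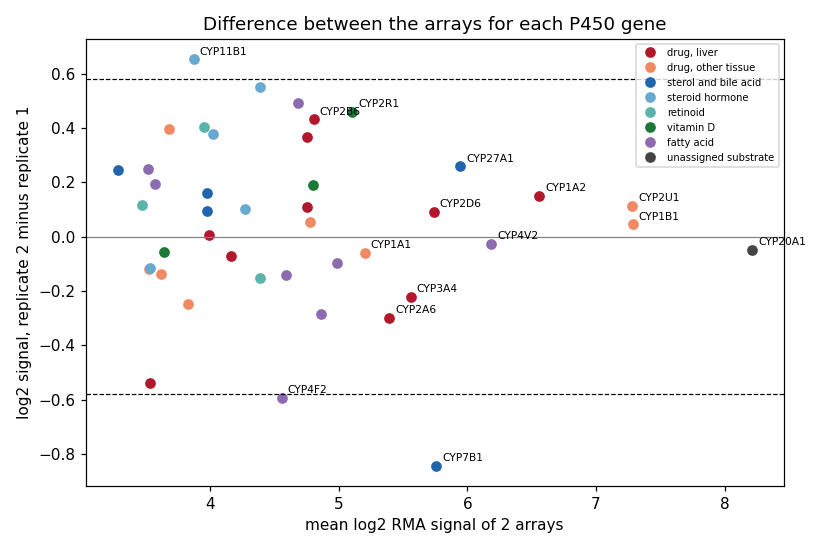
Log2 difference between the arrays (replicate 2 minus replicate 1, vertical axis) against mean log2 RMA signal for the 43 P450 genes, coloured by class, with dashed lines at 0.58 in each direction. CYP7B1 lies at -0.84, and the genes with mean signals over 6 lie within 0.15 of 0.

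The start regions of the members differed widely in CG pairs and in the presence of the letters TATAAA. The 250 bases before the annotated start were read for 31 of 43 members and 13094 of 16692 genes from RefSeq promoter windows (GRCh38.p14). CG pairs were counted in each, as the mean over listed starts. TATAAA, the core letters of the TATA box, was searched on both strands, at any position and in any listed start. A match is therefore not proof of a working TATA box. TATAAA occurred in 13 of 31 members (41.9%), in 10.9% of genes and in 10.7% of all 35116 windows of the table. In the liver enzymes it was present in 7 of 9, and these 9 held 0 to 4 CG pairs. At least 15 CG pairs were found in 9 of 31 members (29.0%), compared with 60.4% of genes and 42.9% of windows. The 2 features did not split the members into separate kinds. Of the 13 members with TATAAA, 2 (CYP26A1 and CYP26B1) also had at least 15 CG pairs. Others, such as CYP3A5, CYP4F2 and CYP11A1, had neither.

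The following 5 windows of 250 bases, chosen after their values were seen, are examples without TATAAA and, from liver enzymes, with it. All 5 genes were called above background, so the windows do not contrast high with low signal. They are written from 5′ to 3′ up to the base before the start, and capitals mark CG pairs and TATAAA. CYP2U1 (chr4:107931299-107931548, plus strand) has 25 CG pairs, CYP20A1 (chr2:203238768-203239017, plus strand) has 26 and CYP4V2 (chr4:186191317-186191566, plus strand) has 29. CYP1A2 (chr15:74748595-74748844, plus strand) has 1, and CYP3A4 (chr7:99784185-99784434, minus strand) has 0. In both of these TATAAA begins 29 bases before the start.
CYP2U1: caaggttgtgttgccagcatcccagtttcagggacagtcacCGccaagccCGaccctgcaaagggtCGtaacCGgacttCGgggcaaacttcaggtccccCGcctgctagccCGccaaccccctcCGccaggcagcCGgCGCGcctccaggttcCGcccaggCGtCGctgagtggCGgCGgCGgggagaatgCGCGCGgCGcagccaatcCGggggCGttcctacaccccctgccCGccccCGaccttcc
CYP20A1: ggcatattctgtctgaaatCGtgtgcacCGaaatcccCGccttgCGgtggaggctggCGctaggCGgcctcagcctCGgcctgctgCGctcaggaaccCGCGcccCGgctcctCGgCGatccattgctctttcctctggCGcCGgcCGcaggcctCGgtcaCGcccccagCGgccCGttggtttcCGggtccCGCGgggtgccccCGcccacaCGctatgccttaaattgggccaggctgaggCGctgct
CYP4V2: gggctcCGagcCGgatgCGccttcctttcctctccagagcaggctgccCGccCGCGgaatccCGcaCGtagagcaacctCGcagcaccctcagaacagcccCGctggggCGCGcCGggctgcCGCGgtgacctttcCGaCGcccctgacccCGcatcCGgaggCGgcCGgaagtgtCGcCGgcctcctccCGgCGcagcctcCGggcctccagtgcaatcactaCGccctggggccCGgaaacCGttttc
CYP1A2: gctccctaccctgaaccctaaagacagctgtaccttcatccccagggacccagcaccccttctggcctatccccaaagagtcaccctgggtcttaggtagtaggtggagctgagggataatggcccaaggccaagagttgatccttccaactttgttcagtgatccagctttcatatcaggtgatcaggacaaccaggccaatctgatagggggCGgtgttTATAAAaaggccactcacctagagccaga
CYP3A4: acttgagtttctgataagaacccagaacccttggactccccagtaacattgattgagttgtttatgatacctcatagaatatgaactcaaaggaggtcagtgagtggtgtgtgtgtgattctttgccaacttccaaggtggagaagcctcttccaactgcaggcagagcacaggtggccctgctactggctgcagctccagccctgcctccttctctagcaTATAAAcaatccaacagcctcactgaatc

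CG-rich windows occurred on both sides of the background level. Of the 8 members above background with a window, 4 had at least 15 CG pairs (CYP2U1, CYP4V2, CYP20A1 and CYP27A1, which had 24). The other 4 (CYP1A1, CYP1A2, CYP2A6 and CYP3A4) had 0 to 10 and each held TATAAA. Of the 23 members not above background, 5 had at least 15: CYP2J2 with 19, CYP2S1 with 23, CYP39A1 with 21, and CYP26A1 and CYP26B1 with 16 each. Over all genes the share was 74.4% of those above background and 38.4% of those not above.

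**Figure D4:**
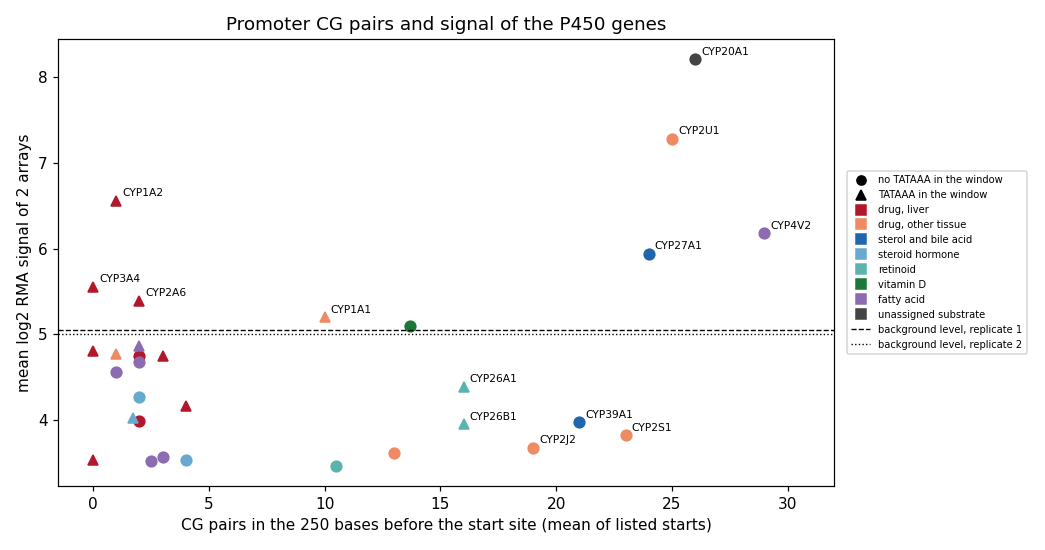
Mean log2 RMA signal (vertical axis) against the number of CG pairs in the 250 bases before the start for 31 P450 genes, coloured by class, with triangles for windows that hold TATAAA and lines at the background levels. The genes with at least 24 CG pairs lie above the lines, whereas those with 16 to 23 lie below them.

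The enzymes that supply P450s with electrons and haem were nearly all above background. Of 9 measured electron donors and helpers, 9 were, among them the reductase POR (7.12 and 7.05), cytochrome b5 CYB5A (10.66 and 10.62) and CYB5B (10.03 and 10.20), and the ferredoxin FDX1 (10.75 and 10.83). Haem synthesis gave 7 of 8, including ALAS1, the first and rate-limiting enzyme in most cells (10.36 and 10.37), ALAD (7.77 and 7.76) and UROS (9.73 and 9.41). The exception was ALAS2, the erythroid form, at 4.31 and 4.56. Haem breakdown gave 4 of 4, with HMOX1 (8.28 and 8.15), HMOX2 (9.05 and 9.09) and BLVRA (11.02 and 10.95). Many of these genes also serve other haem proteins and lipid desaturation. All 57 measured genes of the 8 partner lists together gave 38 above background (66.7%), beside the 57.8% of all genes.

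Of 8 measured regulators of drug-metabolising P450s, from a list of 11, 6 were above background, beside 57.8% of all genes. Listed regulators that were not measured have no call here. The aryl hydrocarbon receptor AHR (7.93 and 7.75) and its partner ARNT (7.36 and 7.24), which drive the CYP1 genes, were above it. So were NFE2L2 (11.06 and 10.98), KEAP1 (8.90 and 8.83), RXRA (8.56 and 8.44) and RXRB (8.18 and 7.95). The xenobiotic receptor NR1I3, which drives CYP2B genes in liver, was at 4.0 and 3.98, and RXRG at 3.92 and 3.80.

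In the oxysterol list 3 of 5 were above background (60.0%, near the 57.8% of all genes), and 1 of 5 at the 99th percentile level. GPR183, the B-cell migration receptor for an oxysterol made by CH25H and CYP7B1, read 11.50 and 11.57. The sterol receptor NR1H3 (5.09 and 5.07) and NR0B2 (5.13 and 5.10) were within 0.1 of the level. CH25H was at 3.61 and 3.86, and SULT2B1 at 4.18 and 3.91, both below background.

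Retinoid genes gave 7 of 11 (63.6%, near the 57.8% of all genes). The receptors RARA (6.88 and 6.94) and RARG (6.19 and 5.90) were above background and RARB (4.56 and 4.78) was not. ALDH1A1 (3.86 and 3.58), DHRS3 (3.98 and 4.70) and LRAT (3.75 and 3.53) were the other exceptions. CRABP2 (5.06 and 5.05) was barely above the level. At the 99th percentile level 4 of 11 were above, beside 53.7% of all genes. Of 5 vitamin D genes, the receptor VDR (7.20 and 7.0) and DHCR7 (8.73 and 8.67) were above background, while CUBN (4.04 and 4.19), LRP2 (4.72 and 4.86) and CAMP (4.61 and 4.92) were not. Steroid synthesis gave 0 of 7, including STAR (3.91 and 3.83), NR5A1 (3.88 and 4.40) and HSD3B1 (4.26 and 3.96). Probe sets of partner genes also split in part. Above background were 2 of 4 for VDR, 2 of 5 for RARA and 2 of 3 for RARG, but 3 of 3 for ARNT and for NFE2L2.

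**Figure D5:**
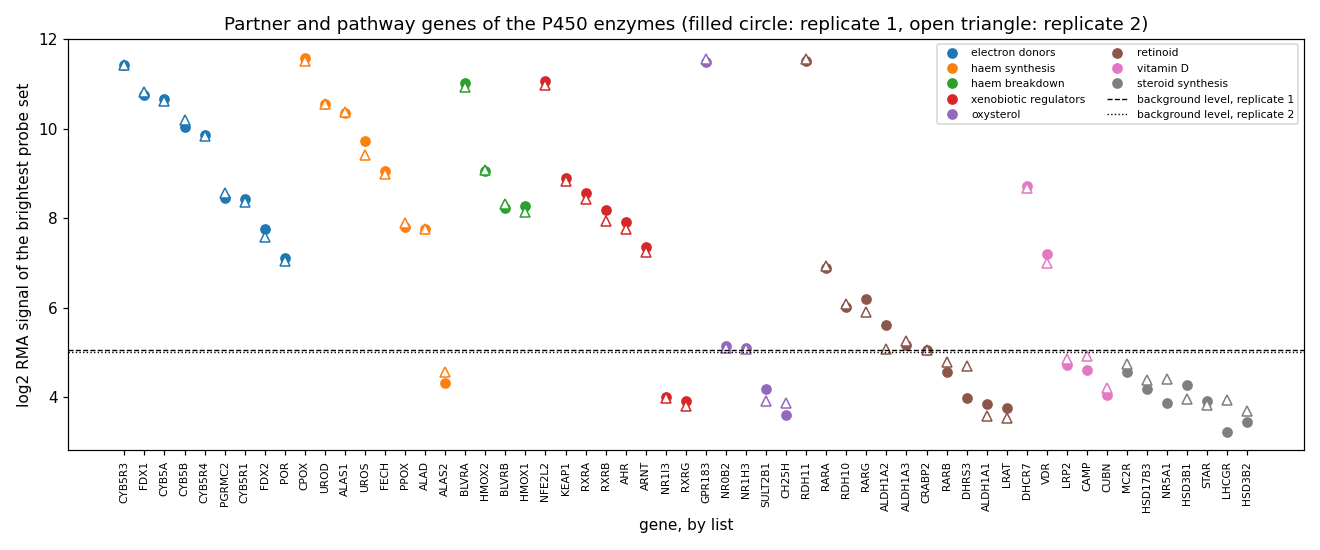
Log2 RMA signal of the brightest probe set (vertical axis) of the 57 measured partner and pathway genes, by list, with replicate 1 as a filled circle, replicate 2 as an open triangle and the background level of each array as a line. Electron donors and haem enzymes other than ALAS2 lie above 7, and all 7 steroid synthesis genes lie below the lines.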

How the data were processed

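Messenger RNA of 2 samples was measured on Affymetrix Human Genome U133 Plus 2.0 arrays. The deposited values are probe set intensities made with RMA, per the submitters' processing notes (version not given in the sources used here). They ran from 6.29 to 33093, a linear scale, and log2 was taken here. RMA equalises the arrays' distributions, so a change in total messenger RNA cannot be seen. RMA gives no detection call and the number of arrays limits precision.

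Of 36289 probe sets, 29493 had 1 symbol in the platform annotation and 29461 were matched by Entrez ID to RefSeq (GRCh38.p14). The 1407 with several symbols and 5389 with none were not assigned to genes. Each gene took the values of its brightest probe set. Members, roles and gene lists were chosen with earlier results of these data known. Members exceeding background by any probe set were named with both values, others by class with the first 2 values; of partner lists the first 3 and the exceptions. No test was run, as there is 1 group. Python 3.11.15, numpy 2.4.6 and pandas 2.3.3 were used, and the counting steps were tested on simulated data. Alternatives were the level (75th or 99th percentile, olfactory receptor genes), the probe sets, normalization, the class of CYP2R1 and each array alone.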

Additional observations from a re-analysis of the deposited data

Results flagged for a closer look

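Among 17 probe sets with a P450 symbol that were not members, because they carry several symbols or name a pseudogene, a readthrough gene, an antisense gene or CYP51A1, 3 were above background on both arrays, in data that the comparisons did not use. The probe set of CYP2B7P, a pseudogene related to CYP2B6, had a mean log2 signal of 5.34 (5.17 and 5.51), while a probe set shared by CYP2B7P and CYP2B6 read 4.58 and 5.30. The 2 probe sets shared by LRRD1 and CYP51A1, the cholesterol synthesis P450, had means of 10.89 and 9.83. The probe sets shared with CYP3A7, CYP4A22 or CYP21A2 were below background, as was the one shared by CYP2D6 and CYP2D7.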

How the results depend on the processing

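Using the 75th percentile as the level, the count of members above background was 20 of 43 (46.5%, beside 66.1% of all genes). It was 11 of 18 drug-metabolising enzymes (61.1%, near the share of all genes), 4 of 16 sterol, retinoid and vitamin D enzymes and 4 of 8 fatty acid enzymes. With the 99th the first 3 counts were 7 of 43, 4 of 18 and 1 of 16, beside 53.7% of all genes. The drug-metabolising count was 4 of 18 with the mean of all probe sets (all genes 55.7%), 4 of 13 without _x_at and _s_at probe sets (50.2%; CYP1B1 has only _s_at probe sets) and 4 of 15 without _x_at and _f_at probe sets (57.2%). In these last 3 settings the sterol, retinoid and vitamin D count was 2 of 16. Using 1 array alone, the member count ranged from 11 (replicate 1, all genes 58.6%) to 13 (replicate 2, with CYP2B6 and CYP2R1, all genes 59.4%). Counting differences over 0.58 instead of over 1, 3 members differed between the arrays. Over 10 settings, CYP2U1, CYP4V2, CYP20A1 and CYP27A1 were above background in all 10. CYP1B1 was above in all 9 in which it was measured, and 23 members were above in none. CYP4V2, CYP20A1 and CYP27A1 have 1 probe set each, so the settings that changed the probe sets left their signals unchanged. Some of the 23 were measured in fewer settings, such as CYP3A43 and CYP4F2 in 8. The other count alternatives, 37 of 48, were within 1.5 times the reported count. When all probe sets were averaged, the signal of 7 of 14 named genes moved by more than the SD of its arrays. Among them were CYP2U1 (7.28 to 4.99), CYP3A4 (5.56 to 4.50), CYP1B1 (7.28 to 6.37) and CYP1A2 (6.56 to 5.76). The level was then also taken from averaged probe sets. CYP2U1 was above that level, although its 4.99 was under the main levels of 5.06 and 5.0, so its call there was close. CYP1A1, CYP2R1, CYP4V2, CYP7B1, CYP20A1 and CYP27A1 have 1 probe set each, so averaging could not move them. Of the named genes with several probe sets, only CYP2B6 moved by less than its SD (4.80 to 4.69). Genes within about 0.5 of the level, such as CYP1A1, CYP2A6 and CYP3A4, have no settled call. No paired analysis was possible because there is 1 group.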
